A study of Mus musculus with 6 samples.

Results

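This report describes the genes of the matrix metalloproteinases (MMPs), the ADAM and ADAMTS proteases, the ADAMTS-like proteins and the tissue inhibitors of metalloproteinases (TIMPs) in mouse tail keratinocytes. Members were all genes of the deposited table whose symbol begins with Mmp, Adam, Adamts or Adamtsl followed by a number, or is Timp1 to Timp4. There were 58 of them among 19618 genes: 17 Mmp, 15 Adam, 17 Adamts, 5 Adamtsl and 4 Timp genes. All 58 are annotated as protein-coding. Polyadenylated RNA was sequenced from keratinocytes of mice aged 4 months, with 3 knockout and 3 control libraries. Knockout mice carried K14cre, a Cre recombinase driven by a keratin 14 promoter and so active in basal keratinocytes, and the floxed Gpr161 allele in homozygous form. Control mice had no K14cre in their labels; 1 was homozygous for the floxed Gpr161 allele and the others were heterozygous, so every mouse carried at least 1 floxed allele and Cre alone was not controlled for. The column names give the genotype group but not the sample title, so libraries are named by their tags and the homozygous control could not be singled out. Values of single libraries are given in 1 order throughout: the knockout libraries DE679, DE685, DE688, then the control libraries DE680, DE684, DE689.

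MMPs and ADAMTS proteases are zinc-dependent enzymes that cut collagens, laminins, proteoglycans and other matrix proteins, and ADAM proteases cut the outer part of membrane proteins to release growth factors, cytokines and receptors. TIMPs block these enzymes by binding in the active site, and TIMP3 differs from the others in that it stays bound to the matrix and also inhibits several ADAM and ADAMTS enzymes. In skin these enzymes are known for their part in wound closure, hair follicle cycling, basement membrane turnover and release of epidermal growth factor receptor ligands. Gpr161, a G protein-coupled receptor located in cilia, restrains Hedgehog signalling, and the comparison of the genotypes asks how keratinocyte expression differs when it is deleted.

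Libraries held 17157864 (DE685) to 25344399 (DE689) estimated counts. Gpr161 itself, counted over the whole gene, had 26.8, 33.6 and 25.9 CPM in the knockout against 30.2, 32.2 and 31.9 CPM, where CPM is the count scaled by TMM (trimmed mean of M values) factors to the same library total. Its log2 fold change was −0.13 (SE 0.11, edgeR adjusted p 0.553), so its level does not check the labels. Gli1 and Ptch1, genes of the Hedgehog pathway, were read beside it. Gli1 had 66.7, 67.1 and 74.5 CPM in the knockout against 9.23, 9.96 and 8.25 CPM (edgeR adjusted p 1.77e-05). Ptch1 had 95.4, 116 and 122 CPM against 31.0, 40.4 and 40.1 CPM (edgeR adjusted p 0.00228). Directions below set the libraries labelled knockout against those labelled control. DE685 in the knockout and DE684 in the control had Y-linked transcripts and the other libraries had Xist. The keratinocyte label was met by the basal keratinocyte markers Krt5, Krt14, Trp63, Itga6, Itgb4 and Col17a1, whose summed level was 29180 to 33210 CPM in the knockout and 25770 to 30700 CPM in the control. The labels do not say that libraries came from separate animals in so many words, so p-values measure the spread between these libraries.

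Adamts7 and Timp3 rose in the knockout, and no other member passed the test in either direction. Adamts7, a secreted protease known to cut cartilage oligomeric matrix protein, was 6.57-fold higher. Timp3, the matrix-bound inhibitor, was 1.53-fold higher. Of the 58 members, 38 passed the filter on low counts. Of these, 2 had an adjusted p under 0.05 and were higher (5.26%), beside 1.24% of the 15422 genes tested that were higher and 1.6% called in either direction. By the same test 0 members were lower, beside 0.357% of all genes; 2 were lower at an unadjusted p under 0.05, and DESeq2 called 1 lower, Mmp3 (2.07% of 14816 genes). The numbers called are too small to set the families apart: 1 of 13 tested Adamts genes, 1 of 2 tested Timp genes, and 0 of 11 Mmp, 0 of 9 Adam and 0 of 3 Adamtsl genes. At an unadjusted p under 0.05, 2 Mmp genes were higher and 1 lower, and 0 Adam genes higher and 1 lower. By the same rule 5 Adamts genes were higher and 0 lower, 2 Adamtsl genes higher and 0 lower, and 1 Timp gene higher and 0 lower. Of all genes, 9.9% were higher and 9.1% lower. DESeq2 called Mmp3 alone among the Mmp, Adam and Adamtsl genes.

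More members had higher than lower values in the knockout, mostly by amounts that did not pass the test. Of the 38 tested, 27 (71.1%) had a positive log2 fold change, against 49.3% of all genes tested, and their median was 0.20 against −0.0036 for all genes. At an unadjusted p under 0.05, 10 were higher (26.3%, beside 9.9% of all genes) and 2 were lower (5.26%, beside 9.1%). The groups did not overlap in CPM, with the knockout higher, for 7 members (18.4%, beside 12.8% of all genes) and with the knockout lower for 3 (7.89%, beside 12.8%). By family, median log2 fold changes were 0.29 for Mmp, 0.026 for Adam, 0.28 for Adamts, 0.48 for Adamtsl and 0.37 for Timp genes. These counts describe the members that passed the filter, and no test was made of them as a set. Single libraries weighed on most of the small changes: leaving out 1 library moved the change by over 1.5 times for 27 of the 38 members, Adamts7 and Timp3 not among them, and turned its sign for 8.

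**Figure D1:**
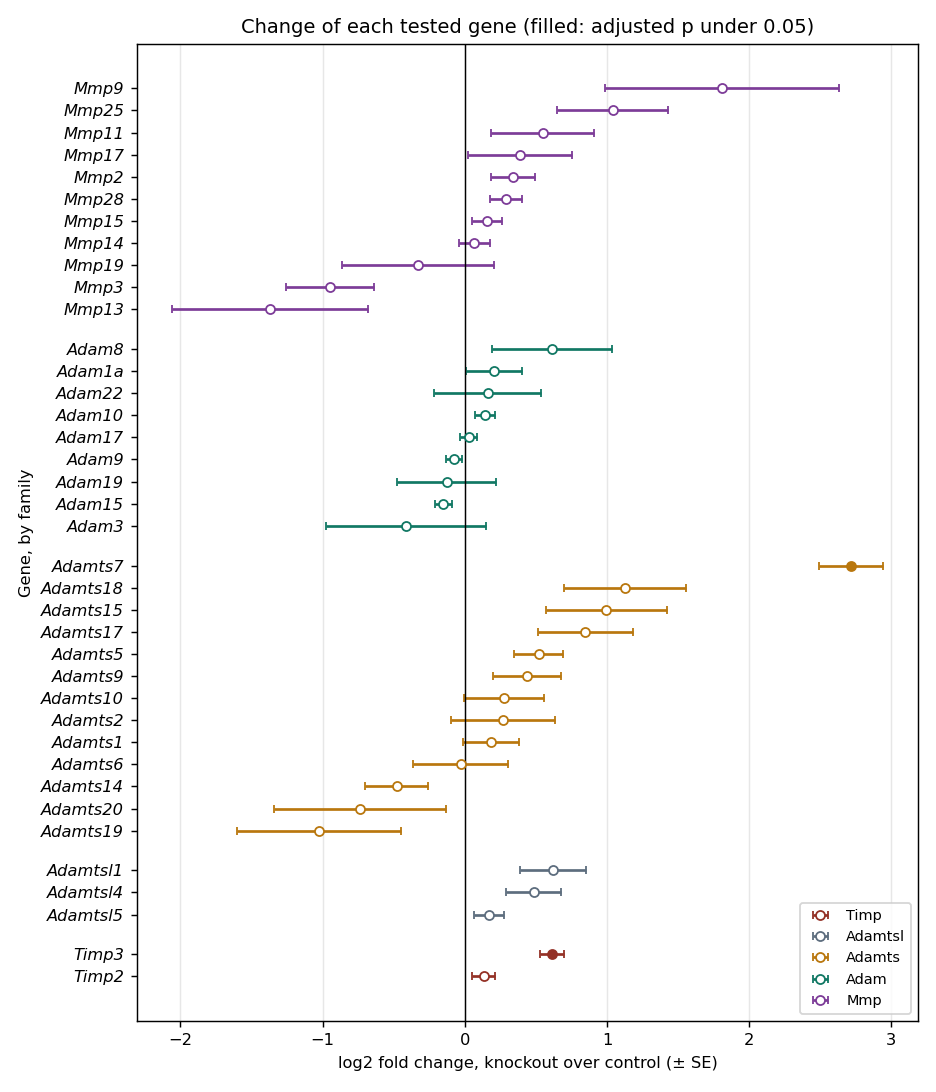
Log2 fold change of knockout over control for the 38 tested members, ordered within each family (x axis, log2 scale; points are edgeR estimates and bars ± SE; filled points have an adjusted p under 0.05). Adamts7 at 2.72 and Timp3 at 0.61 are the filled points, and the widest bars belong to members of low level such as Mmp9 and Mmp13.

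Levels between genes are compared here as FPKM, the CPM divided by the length of the union of a gene's exons in kilobases. Over the 6 libraries, 9 members had a mean of at least 10 FPKM and 16 had at least 1 FPKM. The highest were Mmp2 at 26.9 ± 5.53 FPKM, Adam15 at 22.2 ± 1.56, Timp2 at 21.9 ± 1.87 and Mmp14 at 21.1 ± 2.21 (SD over the 6 libraries of both groups). The order among these 4 is within their spread. They were followed by Adam9 (18.3 ± 0.695 FPKM), Timp3 (17.2 ± 4.15), Adam10 (16.2 ± 1.25), Mmp15 (11.7 ± 1.31) and Adam17 (10.6 ± 0.392). No Adamts gene was among these 9. The highest Adamts gene was Adamts14 at 5.04 ± 1.33 FPKM, and Adamts7 ranked 22nd of the 58, with a mean of 1.16 FPKM in the knockout and 0.177 FPKM in the control.

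**Figure D2:**
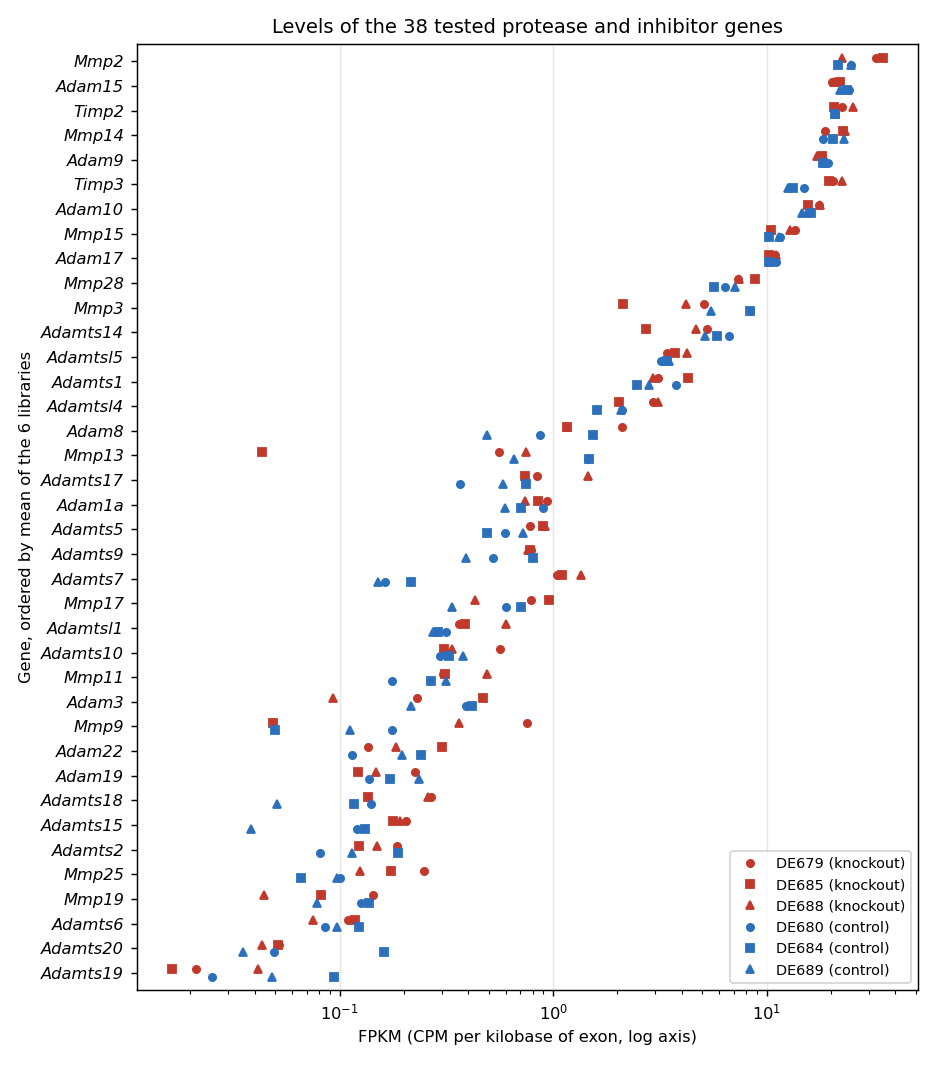
FPKM (log axis) of the 38 tested members in each library, ordered by the mean of the 6 libraries; red symbols are knockout and blue symbols control libraries. Mmp2, Adam15, Timp2 and Mmp14 lie at the top near 20 FPKM, and the red and blue symbols of Adamts7 and of Timp3 are separate.

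Adamts7 (ENSMUSG00000032363.15, chromosome 9, 90163069 to 90208071, plus strand, GRCm38) was at a low level in every control library. The knockout libraries had 6.53 (DE679), 6.93 (DE685) and 8.48 CPM (DE688), whereas the controls had 1.02 (DE680), 1.36 (DE684) and 0.95 CPM (DE689). The lowest knockout library was far above the highest control library. Rounded counts were 154, 120 and 218 against 23, 31 and 24. Knockout libraries averaged 7.31 ± 1.03 CPM and controls 1.11 ± 0.218 CPM (SD, n = 3 each), giving a log2 fold change of 2.72 with an SE of 0.22 (edgeR adjusted p 0.00228). With any 1 of the 6 libraries left out it still passed. Its exons overlap those of Tbc1d2b on the opposite strand over 122 of 6282 bases; Tbc1d2b had 164 ± 10.3 against 133 ± 9.64 CPM, and whether counting used the strand is not given in the sources used here. Adamts12, which is grouped with Adamts7 by its domain structure, had 1 to 8 counts a library and was not tested.

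The genes on either side of Adamts7 were read as context, a choice made after its value was seen. Of the 3 nearest tested genes on each side, 1 passed the test: Rasgrf1, a guanine nucleotide exchange factor for Ras, at 89909908 to 90026977 on chromosome 9. Rasgrf1 had 5.05, 7.39 and 10.3 CPM in the knockout libraries against 1.11, 1.67 and 1.27 CPM in the controls, a log2 fold change of 2.49 with an SE of 0.31 (edgeR adjusted p 0.0131). Its groups, like those of Adamts7, did not overlap. Ctsh and Morf4l1, which lie between Rasgrf1 and Adamts7, had log2 fold changes of −0.14 (SE 0.090, edgeR adjusted p 0.441) and 0.13 (SE 0.063, edgeR adjusted p 0.317). Tbc1d2b, on the other side, had 0.30 (SE 0.074, edgeR adjusted p 0.0973). Ctsh, Morf4l1 and Tbc1d2b did not pass the test. The groups of Morf4l1, Tbc1d2b and the further neighbour Gm5620 also did not overlap, with the knockout higher, as in 12.8% of all genes tested.

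**Figure D3:**
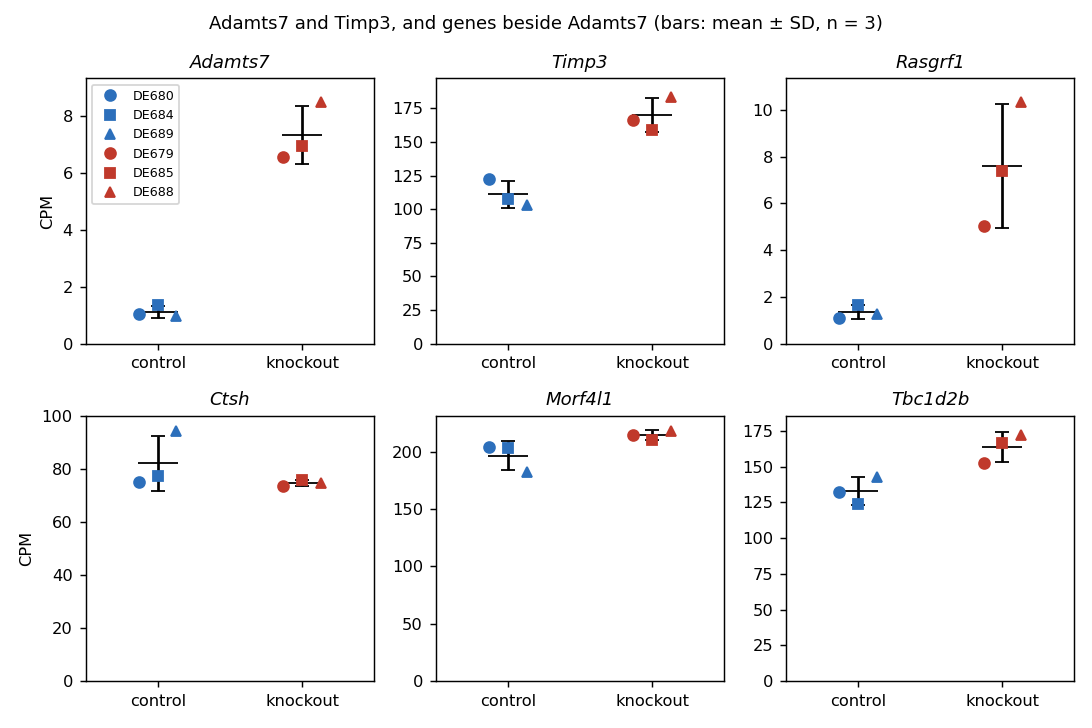
CPM per library of Adamts7 and Timp3 and of 4 genes beside Adamts7 on chromosome 9 (y axes start at 0; points are libraries, bars mean ± SD, n = 3). Adamts7 and Rasgrf1 are separate between groups by several-fold, Timp3, Morf4l1 and Tbc1d2b by less, and Ctsh overlaps.

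Among the TIMPs, Timp3 and Timp2 carried nearly all counts. Timp3 (ENSMUSG00000020044.13, chromosome 10, 86300372 to 86349506, plus strand) had 166, 159 and 184 CPM in the knockout libraries and 122, 108 and 103 CPM in the controls. Every knockout library stood above the highest control library, DE680. The averages were 170 ± 12.7 and 111 ± 10.1 CPM (SD, n = 3 each), giving a log2 fold change of 0.61 with an SE of 0.084 (edgeR adjusted p 0.0178). The direction held in each fit that left out 1 library, but the call was lost without DE679 (edgeR adjusted p 0.0687), DE684 (0.0610), DE688 (0.0650) or DE689 (0.0509). Timp3 lies within the span of Syn3, on the opposite strand, and shares 1733 exonic bases with it; Syn3 had 0.46 ± 0.304 against 0.435 ± 0.107 CPM, far below Timp3. None of its 6 nearest tested neighbours passed the test.

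Timp2, a broad MMP inhibitor that also takes part in activating proMMP2 on the cell surface, had 88.0, 80.5 and 99.0 CPM in the knockout libraries against 81.5, 81.1 and 81.6 CPM in the controls. The control libraries were nearly equal and the knockout libraries lay on both sides of them, with a log2 fold change of 0.13 with an SE of 0.079 (edgeR adjusted p 0.400) that was 0.0495 without DE688 and 0.199 without DE685. Timp1, an inhibitor known to be induced in wounds, had 1 to 9 counts a library, and Timp4 had 0 to 8, so neither was tested. The summed TIMP level was 240 to 283 CPM in the knockout and 185 to 204 CPM in the control, and Timp3 made up most of that difference.

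The promoter of Timp3 is printed because it is the called member with an entry in the RefSeq promoter table (GRCm38.p6); the stretch runs from chr10:86300162-86300371, plus strand, and ends at the annotated gene start. No capitals are used, since none of the 4 motifs searched below is in it.
Timp3: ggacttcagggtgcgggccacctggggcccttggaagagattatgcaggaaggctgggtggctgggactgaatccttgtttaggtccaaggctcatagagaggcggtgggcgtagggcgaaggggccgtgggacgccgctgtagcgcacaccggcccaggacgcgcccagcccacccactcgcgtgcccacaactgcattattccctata
Promoter windows of 250 bases before to 50 bases after a start were searched on both strands for 4 motifs. The first, GACCACCCA, is bound by the Gli factors of the Hedgehog pathway. The second, TGACTCA, is the site of AP-1 factors such as Fos and Jun. The third, TATAAA, is the TATA box of core promoters. The last, GGGCGG, is the GC box bound by Sp1. Entries matched 38 of the 58 members, with 42 windows. The Gli motif was in 0 member windows and in 0.253% of all 32851 windows. The GC box was in windows of 26 of the 38 members, counted by gene, and in 35.7% of all windows, counted by window. In the full Timp3 window it lies after the annotated start. Adamts7 had no entry.

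Of the gelatinases, which cut denatured collagen and type IV collagen, Mmp2 was high and Mmp9 low. Mmp2 had 109, 118 and 76.0 CPM in the knockout libraries against 83.8, 72.5 and 83.7 CPM in the controls. DE679 and DE685 were above every control library and DE688 was not, and the log2 fold change was 0.34 (SE 0.15, edgeR adjusted p 0.283). Mmp9 had 2.67, 0.17 and 1.28 CPM against 0.62, 0.18 and 0.40 CPM, or 63, 3 and 33 counts against 14, 4 and 10. Its groups overlapped because DE685 was as low as DE684, the lowest control, and the log2 fold change of 1.81 had an SE of 0.82 (edgeR adjusted p 0.281). Without DE679 it was 0.93.

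None of the tested stromelysins and collagenases passed the test by edgeR. Mmp3 (stromelysin 1, chromosome 9, 7445822 to 7455975, plus strand), which cuts many matrix proteins and activates other MMPs, had 9.16, 3.81 and 7.51 CPM in the knockout libraries against 14.996, 15.004 and 9.84 CPM in the controls. The groups did not overlap, although DE679 and DE689 were close. The log2 fold change was −0.95 (SE 0.31, edgeR adjusted p 0.166); DESeq2 gave −0.95 with an adjusted p of 0.0269, so the call depends on the tool. Mmp13, the main interstitial collagenase of mice, had 1.48, 0.12 and 1.98 CPM against 3.90, 3.95 and 1.75 CPM. DE688 exceeded DE689, so the groups overlapped, and the log2 fold change was −1.37 (SE 0.69, edgeR adjusted p 0.320). DE685, the knockout library with Y-linked transcripts, was the lowest of the 6 for Mmp3 and for Mmp13, with 2 counts of the latter. Without DE685 the log2 fold changes were −0.67 (edgeR adjusted p 0.197) and −0.88 (edgeR adjusted p 0.322), and with a sex covariate they were −0.998 and −1.55 (edgeR adjusted p 0.125 and 0.255). Mmp11, which is atypical among stromelysins in being activated inside the cell, had 0.49 to 1.36 CPM and a log2 fold change of 0.55 with an SE of 0.36 (edgeR adjusted p 0.448).

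Of the members, Mmp3 and Mmp13 lie close together on chromosome 9 with Mmp12, Mmp1b and Mmp10, from 7272514 to 7510240. Genes of this region that are not members were not looked at. Mmp12, Mmp1b and Mmp10 had 1 to 8 counts a library and were not tested. Promoter windows of all 5 held both the AP-1 motif and the TATA box, and they made up 5 of the 7 members with the AP-1 motif. For Mmp12, neither motif is in the 234 bases before the annotated start. Over all windows, the AP-1 motif was in 5.2% and the TATA box in 13.6%. The stretches before the annotated starts of Mmp3 (chr9:7445572-7445821, plus strand) and Mmp13 (chr9:7272264-7272513, plus strand) are printed with the AP-1 and TATA box letters in capitals.
Mmp3: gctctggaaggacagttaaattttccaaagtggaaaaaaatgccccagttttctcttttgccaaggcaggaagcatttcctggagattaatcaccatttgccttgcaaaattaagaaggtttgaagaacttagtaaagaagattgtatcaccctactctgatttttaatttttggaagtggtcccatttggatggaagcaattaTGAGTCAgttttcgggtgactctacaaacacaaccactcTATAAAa
Mmp13: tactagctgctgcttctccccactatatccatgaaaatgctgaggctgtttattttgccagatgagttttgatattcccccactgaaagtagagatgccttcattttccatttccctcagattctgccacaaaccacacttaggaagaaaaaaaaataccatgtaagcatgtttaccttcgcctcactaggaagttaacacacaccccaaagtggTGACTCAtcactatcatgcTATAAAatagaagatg
The AP-1 letters begin 46 bases before the start of Mmp3, on the minus strand, and 35 bases before that of Mmp13, on the plus strand. The TATA box letters begin 7 and 16 bases before these starts. A match of letters is a description and does not show that a factor binds there.

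**Figure D4:**
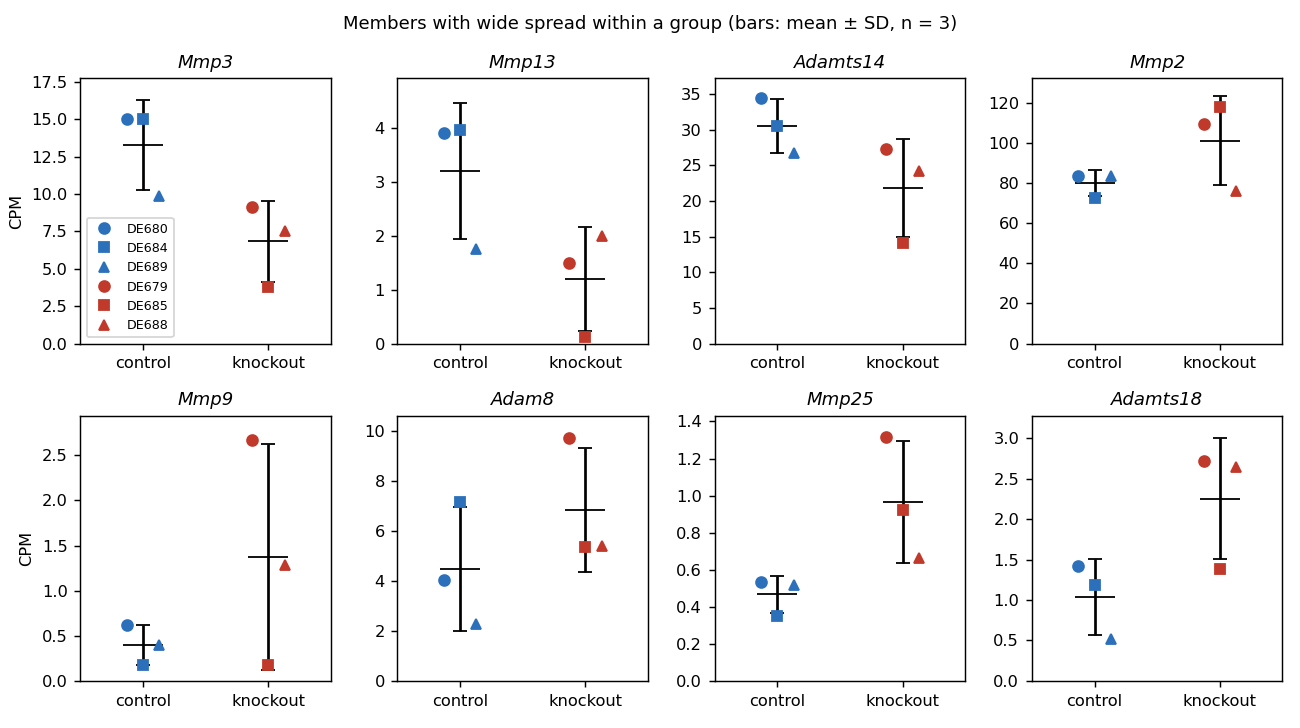
CPM per library of 8 members with wide spread within a group (y axes start at 0; bars mean ± SD, n = 3). The square for DE685 is the lowest of the 6 libraries for Mmp3, Mmp13, Adamts14 and Mmp9, while DE679 is the highest for Mmp9, Adam8 and Mmp25.

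Membrane-type MMPs sit on the cell surface, where Mmp14 activates proMMP2 and cuts collagen around the cell. Mmp14 had 111, 136 and 138 CPM in the knockout libraries against 110, 121 and 137 CPM in the controls. The ranges of the groups nearly coincide, with a log2 fold change of 0.065 with an SE of 0.11 (edgeR adjusted p 0.784) that turned to −0.0105 without DE680. Mmp15 had 73.6, 56.8 and 69.4 CPM against 62.4, 55.4 and 61.6 CPM, a log2 fold change of 0.16 with an SE of 0.10 (edgeR adjusted p 0.445). Mmp25, which is anchored by a lipid and best known from leukocytes, had 1.31, 0.92 and 0.66 CPM against 0.53, 0.35 and 0.52 CPM. Its groups did not overlap at this low level, and the log2 fold change of 1.04 (SE 0.39) had an edgeR adjusted p of 0.214. Mmp17, likewise lipid-anchored, had 5.22, 6.30 and 2.84 CPM against 3.99, 4.69 and 2.22 CPM, with overlapping groups. All 4 tested membrane-type MMPs had positive values, from 0.065 to 1.04, and 0 passed the test; without DE680 Mmp14 was on the other side. Mmp16, Mmp23 and Mmp24 had 1 to 9 counts a library and were not tested.

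Mmp28, epilysin, is an MMP known from keratinocytes of intact and wounded skin. It had 28.3, 34.1 and 28.6 CPM in the knockout libraries against 24.8, 22.02 and 27.6 CPM in the controls. The groups did not overlap, but DE679 and DE689 differed little, and the log2 fold change was 0.29 (SE 0.11, edgeR adjusted p 0.226). Its exons share 466 bases with 1700020L24Rik on the opposite strand. Mmp19 had 0.16 to 0.51 CPM over the 6 libraries and a log2 fold change of −0.33 with an SE of 0.53 (edgeR adjusted p 0.780).

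None of the 9 tested ADAM genes passed the test; at an unadjusted p under 0.05, 0 were higher and 1 was lower, Adam15. Adam10, the main sheddase of Notch receptors and E-cadherin, had 86.6, 76.9 and 87.6 CPM in the knockout libraries against 76.4, 79.1 and 72.1 CPM in the controls, a log2 fold change of 0.14 with an SE of 0.071 (edgeR adjusted p 0.316). Adam17, which releases tumour necrosis factor and several ligands of the epidermal growth factor receptor, had 78.2, 73.4 and 78.7 CPM against 78.8, 73.0 and 74.4 CPM. Its change was 0.026 (SE 0.060, edgeR adjusted p 0.851), with wholly overlapping groups. Adam9, a sheddase of epithelial cells, had 74.8, 74.7 and 70.9 CPM against 79.5, 75.9 and 77.1 CPM, a log2 fold change of −0.077 with an SE of 0.055 (edgeR adjusted p 0.478). Every knockout library was below every control library, by a small margin.

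Adam15, which carries an integrin-binding motif, had 125, 136 and 127 CPM in the knockout libraries against 149, 145 and 136 CPM in the controls. Every knockout library was below every control library, but DE685 and DE689 differed by less than 1 CPM, and the log2 fold change was −0.15 (SE 0.060, edgeR adjusted p 0.232). Adam15 shares 1263 of its 6145 exonic bases with the antisense gene 4731419I09Rik. Adam8, a protease of myeloid cells that is also induced in wounded epithelium, had 9.71, 5.37 and 5.41 CPM against 4.04, 7.15 and 2.26 CPM. DE684 exceeded 2 of the knockout libraries, and the change of 0.61 (SE 0.42, edgeR adjusted p 0.463) was 0.27 without DE679 and 1.12 without DE684. The summed Langerhans cell and macrophage markers were 170, 135 and 188 CPM in the knockout libraries against 145, 90.8 and 118 CPM. Epcam made up most of each sum, at 121, 114 and 135 CPM against 103, 77.8 and 88.4 CPM, without overlap. Cd207, Csf1r, Cd68, H2-Ab1 and Adgre1 had overlapping groups. The part of these cells in the values of Adam8, Mmp9 and Mmp25 was not tested. The 4 other tested Adam genes, Adam1a, Adam3, Adam19 and Adam22, had 0.27 to 7.04 CPM and changes from −0.41 to 0.20, and none passed. Adam1a, the highest of them, shares 4779 of its 7508 exonic bases with Gm42878 and 1805 with Mapkapk5, both on the same strand. How reads in shared exons were counted is not given in the sources used here. Adam4, Adam11, Adam12, Adam1b, Adam23 and Adam33 had 0 to 15 counts a library and were not tested.

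Among the procollagen N-proteinases, which trim the ends of fibrillar procollagens, Adamts14 was the highest Adamts gene. It had 27.3, 14.1 and 24.1 CPM in the knockout libraries against 34.4, 30.5 and 26.8 CPM in the controls. DE685 stood far below the rest and DE679 was just above DE689, so the groups overlapped. The log2 fold change was −0.48 (SE 0.22, edgeR adjusted p 0.290), and −0.25 without DE685. Adamts2, the main enzyme for procollagen I in skin, had 0.75 to 1.75 CPM and a log2 fold change of 0.27 with an SE of 0.37 (edgeR adjusted p 0.731). Adamts3 had 4 to 20 counts a library and was not tested.

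The proteoglycanases cut versican and aggrecan. Adamts5 had 8.44, 9.70 and 9.92 CPM in the knockout libraries against 6.43, 5.31 and 7.81 CPM in the controls, with no overlap. Its log2 fold change was 0.52 (SE 0.17, edgeR adjusted p 0.169). Adamts15 had 2.12, 1.85 and 1.98 CPM against 1.24, 1.36 and 0.40 CPM, also with no overlap, and a log2 fold change of 1.00 with an SE of 0.43 (edgeR adjusted p 0.260). DE689 was the low control, and without it the change was 0.61. Adamts9 had 11.8, 11.7 and 11.4 CPM against 7.85, 12.1 and 5.87 CPM. Knockout libraries were nearly equal and DE684 exceeded them all, a change of 0.44 (SE 0.24, edgeR adjusted p 0.362) that was 0.76 without DE684 and 0.22 without DE689. Adamts1 had 16.5, 22.6 and 15.5 CPM against 20.0, 13.2 and 14.8 CPM, with overlapping groups and a change of 0.18 (SE 0.20, edgeR adjusted p 0.646) that was 0.00099 without DE685 and 0.38 without DE680. Adamts1 and Adamts5 are neighbours on chromosome 16, and neither passed. Adamts20 had 0.32 to 1.45 CPM and a negative change that did not pass, and Adamts4 and Adamts8 had 0 to 12 counts a library.

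Adamts17 and Adamts18 also had unadjusted p-values under 0.05. Adamts17, which is linked to fibrillin matrix, had 6.53, 5.72 and 11.3 CPM in the knockout libraries against 2.84, 5.79 and 4.52 CPM in the controls, a log2 fold change of 0.85 with an SE of 0.33 (edgeR adjusted p 0.230). Adamts18 had 2.71, 1.39 and 2.64 CPM against 1.42, 1.18 and 0.52 CPM, a log2 fold change of 1.13 with an SE of 0.43 (edgeR adjusted p 0.218). In both genes DE685 lay below the highest control. Adamts6, Adamts10 and Adamts19 did not pass, with changes of −0.030, 0.28 and −1.03. These 5 genes, with Mmp11, Mmp17, Mmp19, Adamts2, Adamts20 and the 4 Adam genes of low level, fall outside the rule for named genes and were named after their values were seen.

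ADAMTS-like proteins share the matrix-binding domains of ADAMTS enzymes but lack the protease domain. Adamtsl1 had 4.62, 4.91 and 7.66 CPM in the knockout libraries against 4.04, 3.69 and 3.49 CPM in the controls. The groups did not overlap and DE688 was high, with a log2 fold change of 0.62 with an SE of 0.23 (edgeR adjusted p 0.213) that was 0.35 without DE688. Adamtsl4, which binds fibrillin microfibrils, had 12.3, 8.49 and 13.03 CPM against 8.78, 6.71 and 8.77 CPM, a log2 fold change of 0.48 with an SE of 0.19 (edgeR adjusted p 0.232). DE685 was the knockout library inside the control range. Adamtsl5 had 16.1, 17.5 and 19.9 CPM against 15.04, 16.1 and 16.4 CPM, a log2 fold change of 0.17 with an SE of 0.11 (edgeR adjusted p 0.411). Adamtsl2 and Adamtsl3 had 0 to 19 counts a library and were not tested.

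Genes that activate, restrain or escort these proteases mostly did not pass the test. Of 25 such genes listed, 21 were tested, 1 was higher and 0 were lower (1.24% and 0.357% of all genes). At an unadjusted p under 0.05, 4 were higher and 0 lower (9.9% and 9.1% of all genes). DESeq2 called 1 higher and 0 lower (3.81% and 2.07% of all genes), and the median log2 fold change was −0.0053. The gene that rose was Tspan33, a tetraspanin of the group that escorts Adam10, at 1.55 ± 0.181 CPM in knockout and 0.484 ± 0.0452 CPM in control libraries (SD, n = 3 each; log2 fold change 1.67, SE 0.29, edgeR adjusted p 0.0389). Furin, the convertase that removes the propeptide of many of these enzymes, had 211 and 201 CPM (log2 fold change 0.072, edgeR adjusted p 0.638). Reck, a membrane-anchored MMP inhibitor, had 2.28 and 2.14 CPM (0.097, edgeR adjusted p 0.890). Plat, Rhbdf2 and Tspan15 were, with Tspan33, the genes higher at an unadjusted p under 0.05. Their log2 fold changes were 0.75, 0.21 and 0.70 (edgeR adjusted p 0.125, 0.158 and 0.166). Furin, Reck, Plat, Rhbdf2 and Tspan15 fall outside the rule for named genes.

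Of 22 listed cell surface proteins that ADAM proteases shed, 21 were tested, 0 were higher and 1 was lower by edgeR, with a median log2 fold change of 0.0099; at an unadjusted p under 0.05, 0 were higher and 2 lower, and DESeq2 called 0 higher and 1 lower. Over all genes, 0.357% were lower by edgeR, 9.1% at an unadjusted p under 0.05 and 2.07% by DESeq2, so the unadjusted count of shed proteins is near that of all genes. Cx3cl1, a membrane-bound chemokine, fell from 46.5 ± 4.60 CPM in the control to 31.2 ± 2.20 CPM in the knockout (SD, n = 3 each; log2 fold change −0.57, SE 0.095, edgeR adjusted p 0.0354). Of 21 listed matrix substrates of MMP and ADAMTS enzymes, 19 were tested and 5 rose by edgeR, with 0 lower and a median log2 fold change of 0.055; at an unadjusted p under 0.05, 8 were higher and 1 lower, and DESeq2 called 8 higher and 0 lower. Over all genes, 1.24% were higher by edgeR, 9.9% at an unadjusted p under 0.05 and 3.81% by DESeq2. Those that rose by edgeR were Dcn (decorin, 119 against 31.9 CPM, log2 fold change 1.90), Hspg2 (perlecan, 227 against 97.0 CPM, 1.22), Col4a2 (a type IV collagen chain, 53.3 against 27.5 CPM, 0.95), Ltbp1 (a latent TGF-beta binding protein, 29.0 against 15.1 CPM, 0.94) and Tnc (tenascin C, 76.3 against 47.0 CPM, 0.70). Their edgeR adjusted p-values were 0.00782, 0.00241, 0.0241, 0.0158 and 0.0394.

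Markers of other cell types differed between libraries in part. Over 7 fibroblast markers the summed level was 173 to 186 CPM in the knockout and 61.7 to 97.9 CPM in the control. Dcn (119 against 31.9 CPM) and Thy1 (43.2 against 23.9 CPM) made up most of this sum. Of 6 tested 1 passed, Dcn, while 2 were higher at an unadjusted p under 0.05, 2 by DESeq2, and 3 had negative values. Thy1 had 36.6 to 49.3 CPM in the knockout and 18.8 to 28.6 CPM in the control, without overlap (log2 fold change 0.85, SE 0.17, edgeR adjusted p 0.0560). Col1a1 had 4.71 to 6.46 CPM in the knockout and 3.81 to 12.6 CPM in the control, and Col3a1 had 3.86 to 4.45 against 3.01 to 9.91 CPM, with every knockout library inside the control range. The upper end of both control ranges was DE684 alone. DE680 and DE689 had 4.79 and 3.81 CPM of Col1a1, and 5.28 and 3.01 CPM of Col3a1. Over 6 Langerhans cell and macrophage markers the sum was 135 to 188 against 90.8 to 145 CPM, with all 5 tested on the positive side and 0 past the threshold by edgeR (1 at an unadjusted p under 0.05, 1 by DESeq2). Epcam, the gene with the unadjusted edgeR p under 0.05, made up most of this sum. Of 5 neutrophil markers, Cxcr2 alone had a row, at 1.31 to 1.56 against 2.31 to 3.53 CPM. Over 6 endothelial and mural markers the sum was 3.81 to 5.47 against 3.53 to 7.15 CPM, and over 5 melanocyte markers 63.0 to 100 against 42.1 to 68.0 CPM. All 5 melanocyte markers had positive values, 0 passed by edgeR, 2 were higher at an unadjusted p under 0.05 and DESeq2 called 1 higher. Of the 6 differentiated keratinocyte markers, 5 had negative values, 0 passed by edgeR, 2 were lower at an unadjusted p under 0.05 and DESeq2 called 1 lower. The T cell sum was 3.93 to 9.16 against 2.46 to 5.68 CPM, the hair follicle sum 4005 to 4509 against 3099 to 3687 CPM, the differentiated keratinocyte sum 16360 to 23690 against 18520 to 32370 CPM, and the skeletal muscle sum 1.56 to 1.82 against 1.38 to 2.19 CPM. The fibroblast sum, mostly Dcn and Thy1, and the hair follicle sum were higher in every knockout library than in every control library. Adamts7 and Timp3 were likewise higher in every one, and Cxcr2 was lower. Of all genes tested, 12.8% were higher without overlap and 12.8% lower. The part of these cell types in the values of Adamts7 and Timp3 was not tested. Of the 6 hair follicle markers, 5 had positive values, 0 passed by edgeR, 4 were higher at an unadjusted p under 0.05 and DESeq2 called 4 higher. Krt79 (2174 against 1848 CPM) and Krt15 (1881 against 1443 CPM) made up most of the hair follicle sum. Krt15, Sox9 and Lhx2 were higher without overlap, whereas Krt79, Lgr5 and Cd34 had overlapping groups. Cd34 had a negative log2 fold change of −0.29. For comparison with these marker lists, 9.9% of all genes were higher and 9.1% lower at an unadjusted p under 0.05. DESeq2 called 3.81% of all genes higher and 2.07% lower. The edgeR shares were 1.24% and 0.357%, and 49.3% of all genes had positive values. In bulk RNA, more cells of a type and more RNA per cell cannot be told apart.

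**Figure D5:**
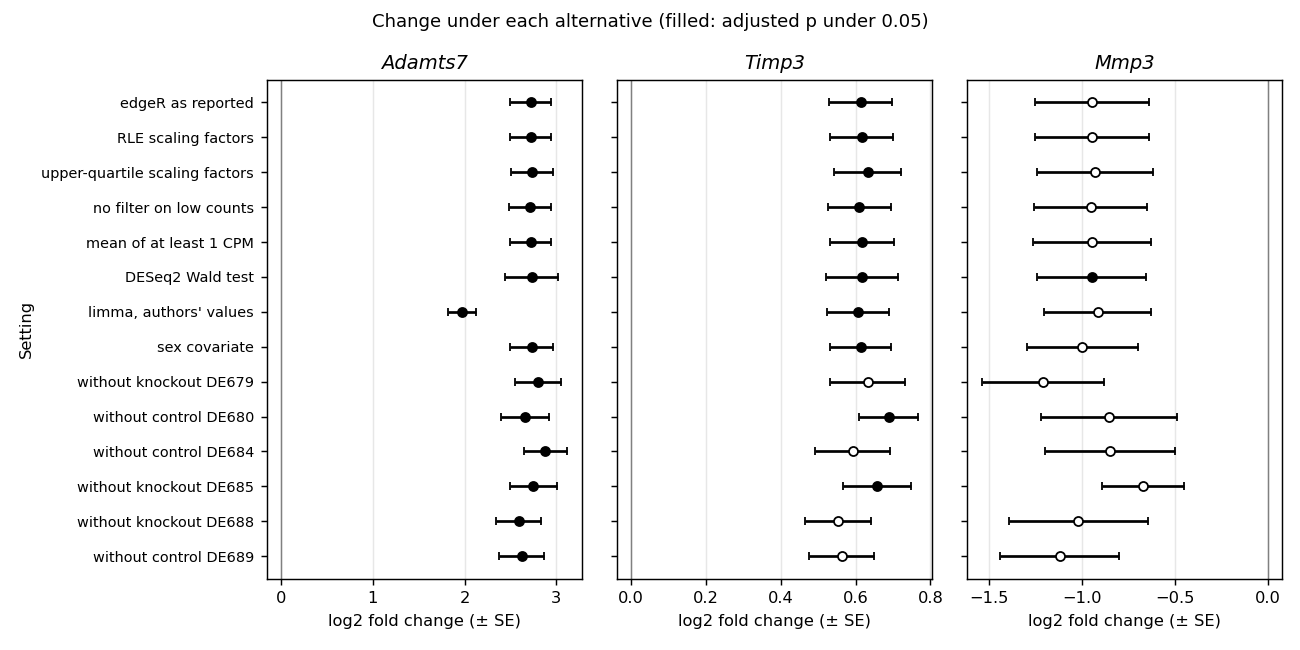
Log2 fold change ± SE of Adamts7, Timp3 and Mmp3 under each setting (x axes differ in range; filled points have an adjusted p under 0.05). Adamts7 is filled in every setting, Timp3 is open in 4 fits that leave out a library, and Mmp3 is filled under DESeq2 only.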

How the data were processed

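RNA of 3 knockout and 3 control libraries was analysed. The authors made estimated counts per gene from sorted alignments with duplicates marked, per the file headers, and deposited them unscaled. The authors' second deposited table, a normalized signal per gene, was used for 1 alternative. Per the submitters' processing notes, bcl2fastq 2.20, cutadapt 1.18, STAR 2.7.0f and Partek were used with the build mm10; the counting tool and use of strand are not given in the sources used here.

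Estimated counts were rounded, filtered with filterByExpr, scaled with TMM factors (0.976 to 1.03) and fitted on all genes with glmQLFit and glmQLFTest in edgeR 4.0.16, genotype being the only term. Benjamini-Hochberg adjustment ran over 15422 genes, with 0.05 as the threshold; the test was planned for counts and kept for rounded estimates. SEs were taken as the absolute fold change over the root of F. The fit was tested on simulated data, where it recovered 70.1% of 97 genes changed 2-fold and 94.9% of 98 genes changed 4-fold. It made 12 false calls among 15157 genes. Smaller changes were not simulated. A count of 3 corresponds to 0.117 to 0.173 CPM. With 3 against 3, an exact permutation test cannot go below 0.1.

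Named members were those called, those with an unadjusted p under 0.05 and no overlap, all TIMPs, the 4 highest of each other family, and a fixed list. Mmp7, on the fixed list, was not among the 58 members. Members, lists and this rule were chosen with earlier results of these data known. Coordinates of all 58 members equal those in GENCODE M21 (GRCm38), and promoter sequences are from RefSeq (GRCm38.p6). Alternatives used other scaling factors and filters, DESeq2 1.42.0, limma 3.58.1 on log2 of the authors' values plus 1, a sex covariate read from Xist and Y-linked genes, and each library left out.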

Additional observations from a re-analysis of the deposited data

How the results depend on the processing

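Adamts7 passed in all 13 alternatives, with log2 fold changes from 1.97 (limma, where the added 1 shrinks low values) to 2.88. Timp3 passed in 9 of 13, with changes from 0.55 to 0.69. The number of members called higher was 2 in each setting with all libraries and 1 to 2 with a library left out. The number called lower was 0, but 1 under DESeq2 (Mmp3), and 0 in each fit that left out a library. Of the 38 tested members, 8 changed sign in a fit without 1 library and 0 did so otherwise. Without DE679 Adamts10 was −0.0471; without DE680 Adam22 was −0.0892 and Mmp14 −0.0105; without DE684 Adamts20 was 0.203 and Adamts6 0.129; without DE685 Adam19 was 0.0371 and Adam22 −0.201; without DE688 Adam3 was 0.0204, Adamts6 0.153 and Mmp19 0.0248; without DE689 Adam19 was 0.104. Their ranges over these fits were −0.418 to 0.104 for Adam19, −0.201 to 0.399 for Adam22, −1.08 to 0.0204 for Adam3, −0.0471 to 0.428 for Adamts10, −1.1 to 0.203 for Adamts20, −0.154 to 0.153 for Adamts6, −0.0105 to 0.163 for Mmp14 and −0.877 to 0.0248 for Mmp19. The cause of these differences was not tested. Over all genes edgeR called 192 higher and 55 lower, DESeq2 565 and 307, the fit with a sex covariate 299 and 110, and fits without 1 library 65 to 109 and 3 to 19, where fewer samples were fitted. Adam3, Adamts6, Adamts19, Adamts20, Mmp9, Mmp11, Mmp19 and Mmp25 gave no value at a minimum mean of 1 CPM, nor Mmp19 under DESeq2. No paired analysis was possible because the column names carry running numbers and tags but no replicate number shared by a knockout and a control library. Neighbouring tags (DE679 and DE680, DE684 and DE685, DE688 and DE689) each join a knockout and a control library alike in Xist and Y-linked transcripts. No label calls them pairs, and a block by tags was not tested. Mmp17, H2-Ab1, Csf1r and Cd207, whose groups overlapped, were higher in the knockout library of each. Adam8 and Cd68 were not, and other genes were not compared in this way. Depth limits the 20 untested members, none of which had more than 20 counts in a library.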
